A study of Homo sapiens with 4 samples.

Results

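The genes described here are 10 targets of the unfolded protein response. Apart from XBP1, which encodes a transcription factor, they encode chaperones and other quality control proteins of the endoplasmic reticulum (ER). They were chosen by gene symbol, with no threshold on a measured value. All 10 matched 1 Ensembl gene ID each among the 64252 IDs of the count table, and all 10 passed the filter on low counts, which kept 19610 genes. RNA sequencing was done on SK-N-BE(2), an established human neuroblastoma cell line with amplified MYCN, and all 4 libraries came from this line. The shTTC8 group had received a short hairpin RNA against TTC8, a subunit gene of the BBSome complex of the primary cilium, and the shScb group a scramble hairpin (2 libraries each). The number of hairpins and their sequences were not stated in the labels, which also do not tell whether replicates were grown as separate cultures. Each p-value therefore reflects the spread among these 4 samples, possibly a technical one. An effect of lowered TTC8 cannot be told apart from an off-target effect of a hairpin.

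The shTTC8 libraries held 38284663 and 40863047 counts, against 51168727 and 55331449 counts in the shScb libraries. TTC8 itself stood at 29.1 and 30.6 counts per 1000000 (CPM) in shTTC8, against 196 and 191 CPM in shScb (log2 fold change -2.70, SE 0.07, edgeR adjusted p = 5.38e-12). Of 6 sympathetic neuroblastoma markers, each detected in every library, MYCN, TH, DBH and GATA3 fell, ISL1 rose and HAND2 was not called. MYCN stood at 3713 and 3819.6 CPM in shTTC8, against 5661 and 5815 CPM in shScb, and ISL1 at 119 and 125 CPM in shTTC8, against 98.9 and 103 CPM in shScb. A list of 6 fibroblast markers summed to 206 and 199 CPM in shTTC8 and 456 and 439 CPM in shScb. All 5 of those markers that were tested fell, and the untested one, COL1A2, was at 0 in both shTTC8 libraries. PECAM1 of endothelium, SOX10 of Schwann cells and HBB of blood were at 0 in every library. The other blood marker, PTPRC, reached at most 3.55 CPM in shTTC8 and 15.8 CPM in shScb, and fell. The 3 endothelium markers summed to at most 0.180 CPM in shTTC8 and 1.48 CPM in shScb, the 4 Schwann cell and glia markers to at most 5.90 and 5.01 CPM and the 3 epithelium markers to at most 5.53 and 7.24 CPM, of which VWF and KRT19 fell. The part of other cell types in the results below was not tested.

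Proteins that enter the ER are folded there by chaperones, held in a quality control cycle by lectins, linked by disulfide bonds and, if they fail, returned to the cytosol for degradation. When unfolded proteins build up, the sensors ERN1 (IRE1), EIF2AK3 (PERK) and ATF6 start the unfolded protein response. ERN1 splices the mRNA of XBP1, ATF6 is cut to release a transcription factor, and EIF2AK3 slows translation and raises ATF4. ATF6 and spliced XBP1 act with the factor NF-Y through the ER stress response element (ERSE) of chaperone promoters. Cells that secrete much protein, such as neuroendocrine cells, rely on this pathway.

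The promoters of the genes are shown first because 7 of the 10 carry this element or its variant, the ERSE-II, genes that rose and genes that fell among them. RefSeq promoter windows (GRCh38.p14, 250 bases before the start of transcription and 50 from it) were available for all 10 genes. The ERSE, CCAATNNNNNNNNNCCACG, was searched on both strands and was found in 5 of the 10 genes, HSPA5, HSP90B1, CALR, XBP1 and CRELD2. The ERSE-II, ATTGGNCCACG, was found in HERPUD1 and SDF2L1. Among all 35116 promoter windows of this length, 0.0769% held the ERSE and 0.0541% the ERSE-II. The element is known from chaperone promoters, so these shares were not used to test its presence in the 10 genes. The unfolded protein response element, TGACGTGG, was in 0.729% of all windows and in none of the 10 genes. The letters of the ERSE and of the ERSE-II do not overlap in any of the 10 windows. The windows of DNAJB9, PDIA4 and MANF held none of these letters, which says nothing of more distant or inexact sites.

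The stretches below hold each match with up to 25 bases on either side, 5′ to 3′ in the direction of the gene. Capitals mark the fixed letters of the motif, and CGTGG before ATTGG or CCAAT is the ERSE or the ERSE-II read on the other strand. They lie at chr9:125241366-125241434 on the minus strand for HSPA5, chr12:103930191-103930364 on the plus strand for HSP90B1 and chr19:12938359-12938427 on the plus strand for CALR. That of XBP1 is at chr22:28800578-28800646 on the minus strand, and those of CRELD2 and SDF2L1 are at chr22:49918529-49918597 and chr22:21642089-21642149 on the plus strand. The stretch of HERPUD1 is at chr16:56932000-56932060 on the plus strand.
HSPA5: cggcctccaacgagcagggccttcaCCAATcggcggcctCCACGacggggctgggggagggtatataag
HSP90B1: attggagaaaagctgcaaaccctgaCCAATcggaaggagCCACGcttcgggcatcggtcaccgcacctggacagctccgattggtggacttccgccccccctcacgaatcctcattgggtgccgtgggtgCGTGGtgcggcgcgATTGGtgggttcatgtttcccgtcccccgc
CALR: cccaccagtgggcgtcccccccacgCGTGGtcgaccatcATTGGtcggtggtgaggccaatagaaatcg
XBP1: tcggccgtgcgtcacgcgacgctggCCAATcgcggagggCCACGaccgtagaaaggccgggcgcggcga
CRELD2: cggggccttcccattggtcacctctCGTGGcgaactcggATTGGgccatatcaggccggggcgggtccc
HERPUD1: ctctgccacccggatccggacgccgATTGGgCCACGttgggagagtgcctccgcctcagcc
SDF2L1: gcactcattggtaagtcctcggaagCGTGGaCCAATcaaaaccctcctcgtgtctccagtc

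**Figure D1:**
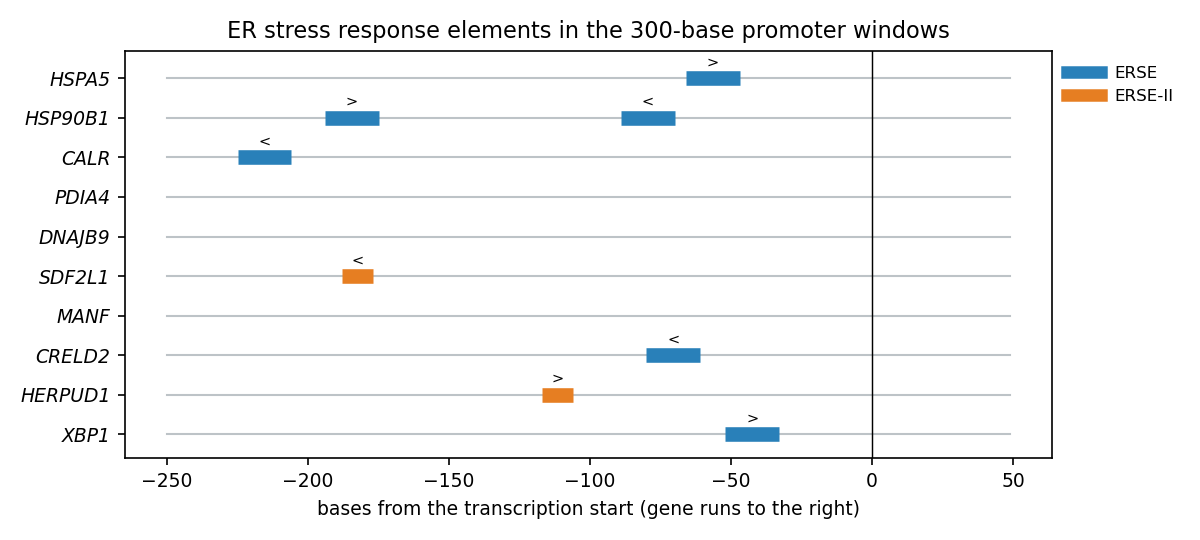
Positions of the ERSE (blue) and the ERSE-II (orange) in the 300-base promoter windows of the 10 genes, in bases from the start of transcription, with > for a match on the strand of the gene and < for the other strand. HSP90B1 is the gene with 2 matches, and DNAJB9, PDIA4 and MANF have none.

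Distances from the start differed between the genes. The ERSE began 66 bases before the start in HSPA5, 52 in XBP1 and 80 in CRELD2. HSP90B1 held 2 copies, which began 194 and 89 bases before its start, and the copy of CALR began 225 bases before it. The ERSE-II began 117 bases before the start in HERPUD1 and 188 in SDF2L1.

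The comparison of shTTC8 with shScb asked whether these genes differed when TTC8 was lowered. They did not move as a block. CRELD2 rose 1.53-fold and CALR 1.15-fold, HERPUD1 fell to 0.751 and HSP90B1 to 0.858 of the shScb level, and the other 6 did not pass the test. The 10 genes together summed to 1929.8 and 1896.6 CPM in shTTC8, against 1912.8 and 1912.8 CPM in shScb. A gene is said to rise or fall where edgeR's quasi-likelihood test gave a Benjamini-Hochberg adjusted p under 0.05 over all 19610 tested genes. By this rule 2 of the 10 rose, where 15.2% of all tested genes did, and 2 fell, where 16.7% of all tested genes did. In either direction that is 4 of 10, near the 31.9% of all genes tested. The count was 2 of 10 without shTTC8 replicate 1 or without shTTC8 replicate 2. In RNA from whole cultures, fewer cells of a type and less RNA per cell cannot be told apart. The median log2 fold change was 0.06 over the 10 genes and 0.0035 over all tested genes. In 9 of the 10 the CPM of the 2 groups did not overlap, against 65.5% of all tested genes, and MANF was the exception.

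**Figure D2:**
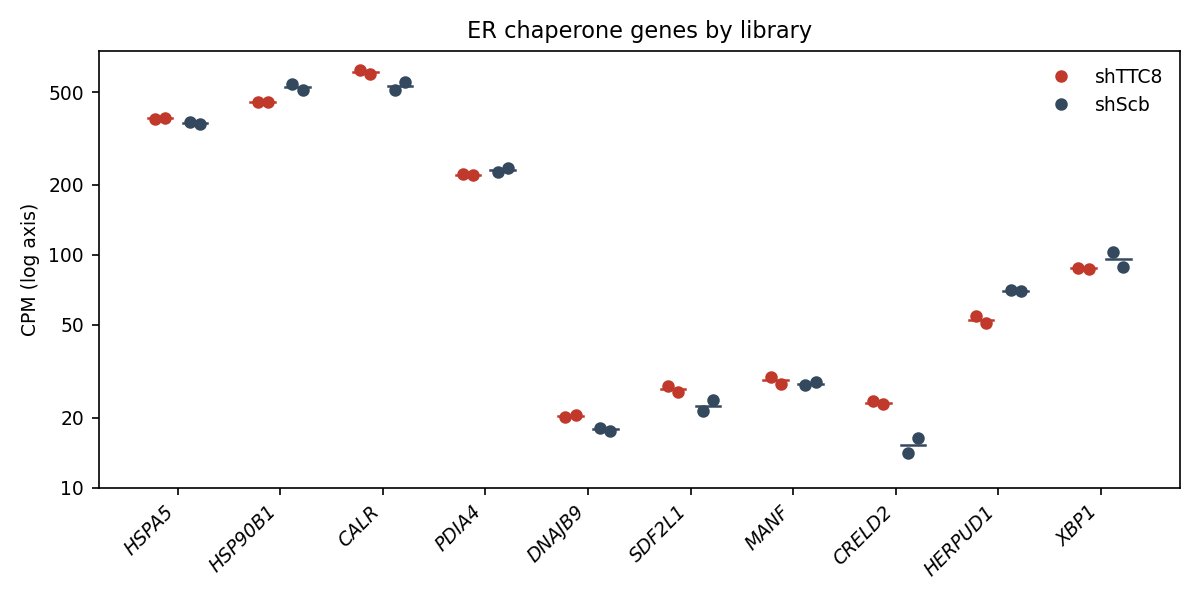
CPM (log axis) of the 10 genes in each library, with points for libraries and bars for the mean of 2 libraries. HSP90B1 and HERPUD1 are lower in both shTTC8 libraries, CALR and CRELD2 are higher, and the levels of HSPA5 lie close together.

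HSPA5 encodes BiP, the Hsp70 chaperone of the ER, which also holds the stress sensors inactive and is the usual readout of the response. HSPA5 (ENSG00000044574, chromosome 9, 125234853 to 125241330, GRCh38) stood at 385 and 388 CPM in shTTC8, against 374 and 367 CPM in shScb. Both shTTC8 libraries were slightly higher than both shScb libraries. The difference did not pass the test (log2 fold change 0.06, SE 0.06, edgeR adjusted p = 0.463). Its 95% interval ran from 0.958-fold to 1.14-fold.

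HSP90B1 encodes GRP94, the Hsp90 chaperone of the ER, which folds integrins and Toll-like receptors. HSP90B1 (ENSG00000166598, chromosome 12, 103930107 to 103953645) had 455 and 453 CPM in shTTC8, against 545 and 514 CPM in shScb. The groups did not overlap, and the gene fell by 0.22 on the log2 scale (SE 0.06, edgeR adjusted p = 0.0108). The call was lost without shTTC8 replicate 1 (adjusted p = 0.103) and without shTTC8 replicate 2 (adjusted p = 0.120). With an offset for transcript length and GC content the log2 fold change was -0.12 (adjusted p = 0.0441).

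CALR encodes calreticulin, a lectin that binds glycoproteins in the folding cycle and stores calcium. CALR (ENSG00000179218, chromosome 19, 12938578 to 12944489) had 624 and 601 CPM in shTTC8, against 511 and 552 CPM in shScb. Both shTTC8 libraries were higher than both shScb libraries, and the gene rose by 0.20 on the log2 scale (SE 0.06, edgeR adjusted p = 0.0213). The call was lost without shTTC8 replicate 1 (adjusted p = 0.227), without shTTC8 replicate 2 (0.0848), without shScb replicate 1 (0.0788) and with no filter on low counts (0.0843). PDIA4, a disulfide isomerase also known as ERp72 (ENSG00000155660, chromosome 7, 149003062 to 149028641), had 222 and 219.8 CPM in shTTC8, against 228 and 235 CPM in shScb. The difference of -0.07 on the log2 scale did not pass (SE 0.06, edgeR adjusted p = 0.415; 95% interval 0.875-fold to 1.04-fold).

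The relation between the abundant chaperones was also read within each library, where no scaling of libraries enters. HSPA5 had 0.847 and 0.858 counts per HSP90B1 count in shTTC8, against 0.687 and 0.714 in shScb. HSP90B1 had 0.730 and 0.753 counts per CALR count in shTTC8, against 1.07 and 0.930 in shScb. Neither ratio overlapped between the groups. Among the 10 genes 40 of the 45 pairs did not overlap, and no such share was counted for pairs of other genes. The pairs reuse the same 10 genes, of which 9 did not overlap by CPM, against 65.5% of all tested genes. HSP90B1 stood lower in shTTC8 relative to HSPA5 and CALR, and higher relative to HERPUD1, with 8.34 and 8.92 counts per HERPUD1 count in shTTC8, against 7.75 and 7.34 in shScb. Of the 45 pairs, the widest shift was that of HERPUD1 to CRELD2, at 2.32 and 2.22 in shTTC8, against 4.99 and 4.30 in shScb. These 4 pairs were chosen after their values were seen. An exact two-sided permutation test of 2 against 2 libraries cannot go below p = 0.333, which each of them gave (0.375 adjusted over the 45 pairs).

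**Figure D3:**
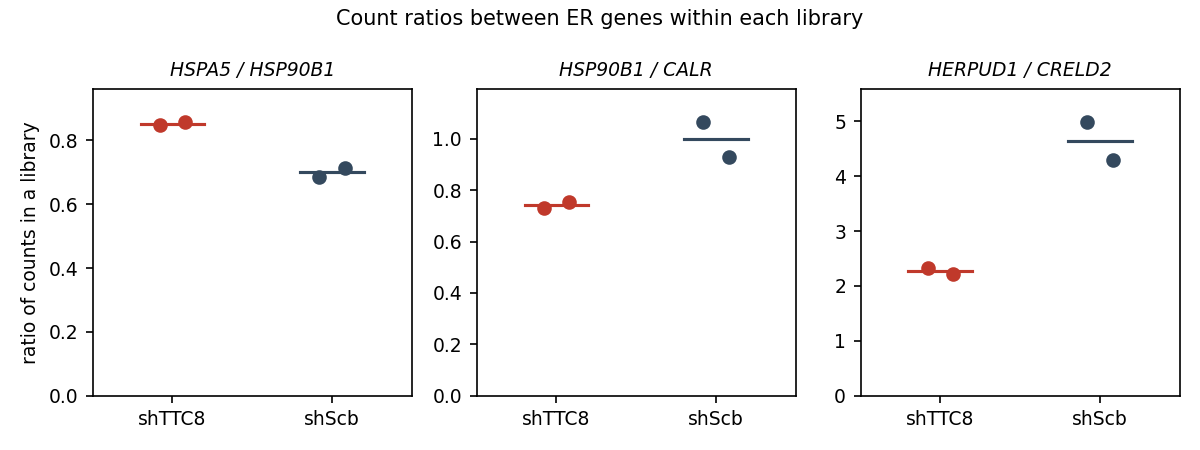
Ratios of counts within each library for 3 pairs of genes, with points for libraries and bars for the mean of 2. In each pair the shTTC8 and shScb points do not overlap, and the ratio of HERPUD1 to CRELD2 is near 2.27 in shTTC8 and 4.65 in shScb.

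Among the cofactors, DNAJB9, SDF2L1 and MANF did not pass the test, and CRELD2 did. DNAJB9 (ERdj4) is a J-domain co-chaperone that brings BiP to ERN1 and to misfolded proteins. It had 20.1 and 20.5 CPM in shTTC8, against 18.1 and 17.6 CPM in shScb (log2 fold change 0.19, SE 0.09, edgeR adjusted p = 0.155). The groups did not overlap. With the offset for GC content and length DNAJB9 passed (log2 fold change 0.30, adjusted p = 0.0137). The library kit does not mark the strand, and the exons of DNAJB9 (ENSG00000128590, chromosome 7, 108569568 to 108574850) share 183 bases with THAP5 and 99 bases with PNPLA8 on the opposite strand. These neighbours had 185% and 99.6% of its counts, so its level is uncertain. THAP5 had a log2 fold change of -0.23 and was not called (edgeR adjusted p = 0.0523), and PNPLA8 fell by 0.56 on the log2 scale (edgeR adjusted p = 0.00041).

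SDF2L1 joins the BiP co-chaperone DNAJB11 in the ER. It had 27.4 and 25.7 CPM in shTTC8, against 21.2 and 23.7 CPM in shScb. Both shTTC8 libraries were higher, but the difference of 0.24 on the log2 scale did not pass (SE 0.09, edgeR adjusted p = 0.0651). It passed with library size alone (adjusted p = 0.0315), with a stricter filter (0.0481) and without shScb replicate 2 (0.0116). With the offset for GC content and length the value was 0.08 (adjusted p = 0.462). SDF2L1 (ENSG00000128228, chromosome 22, 21642261 to 21644298) had the highest GC content of the 10 transcripts, 65.5%. MANF, a small secreted protein that binds BiP and protects neurons, had 30.0 and 28.0 CPM in shTTC8, against 27.6 and 28.4 CPM in shScb. The groups of MANF (ENSG00000145050, chromosome 3, 51385047 to 51389397) overlapped, and its log2 fold change was 0.05 (SE 0.09, edgeR adjusted p = 0.701; 95% interval 0.912-fold to 1.18-fold).

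CRELD2 is an ER-resident and secreted protein with EGF-like domains that is induced by ER stress. It had 912 and 946 counts in shTTC8 and 712 and 884 counts in shScb, although the shScb libraries were deeper. Scaled, CRELD2 had 23.5 and 22.9 CPM in shTTC8, against 14.1 and 16.3 CPM in shScb. Both shTTC8 libraries were well above both shScb libraries. The rise of 0.61 on the log2 scale (SE 0.10, edgeR adjusted p = 0.000329) was the largest change among the 10 genes and was called in all 14 alternative analyses. CRELD2 (ENSG00000184164, chromosome 22, 49918167 to 49927540) shares 168 exonic bases with ALG12, a mannosyltransferase gene on the opposite strand that had 168% of its counts. The strand is not marked, so the level of CRELD2 is uncertain, as that of DNAJB9 is. ALG12 had 35.2 and 30.8 CPM in shTTC8, against 29.6 and 30.9 CPM in shScb, which overlapped (log2 fold change 0.13, SE 0.09, edgeR adjusted p = 0.326). The promoter windows of CRELD2 and ALG12 share 295 bases, so both genes carry the ERSE printed for CRELD2. CRELD2 had 0.667 and 0.742 counts per ALG12 count in shTTC8, against 0.476 and 0.527 in shScb.

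HERPUD1, a membrane protein of the complex that removes misfolded proteins from the ER, fell furthest of the 10. HERPUD1 (ENSG00000051108, chromosome 16, 56932048 to 56944863) had 54.6 and 50.8 CPM in shTTC8, against 70.3 and 70.0 CPM in shScb. The groups were far apart compared with the spread within each. Its fall by 0.41 on the log2 scale (SE 0.07, edgeR adjusted p = 0.000373) was called in all 14 alternative analyses. XBP1, the transcription factor of the ERN1 branch (ENSG00000100219, chromosome 22, 28794555 to 28800597), had 88.0 and 87.1 CPM in shTTC8, against 103 and 89.0 CPM in shScb. The shScb libraries differed from each other more than shScb replicate 2 differed from either shTTC8 library. XBP1 did not pass (log2 fold change -0.14, SE 0.07, edgeR adjusted p = 0.186). Its value was -0.24 without shScb replicate 2 (adjusted p = 0.00176) and -0.03 without shScb replicate 1 (adjusted p = 0.837). Counts per gene do not separate the spliced from the unspliced XBP1 mRNA, so the activity of ERN1 was not measured.

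**Figure D4:**
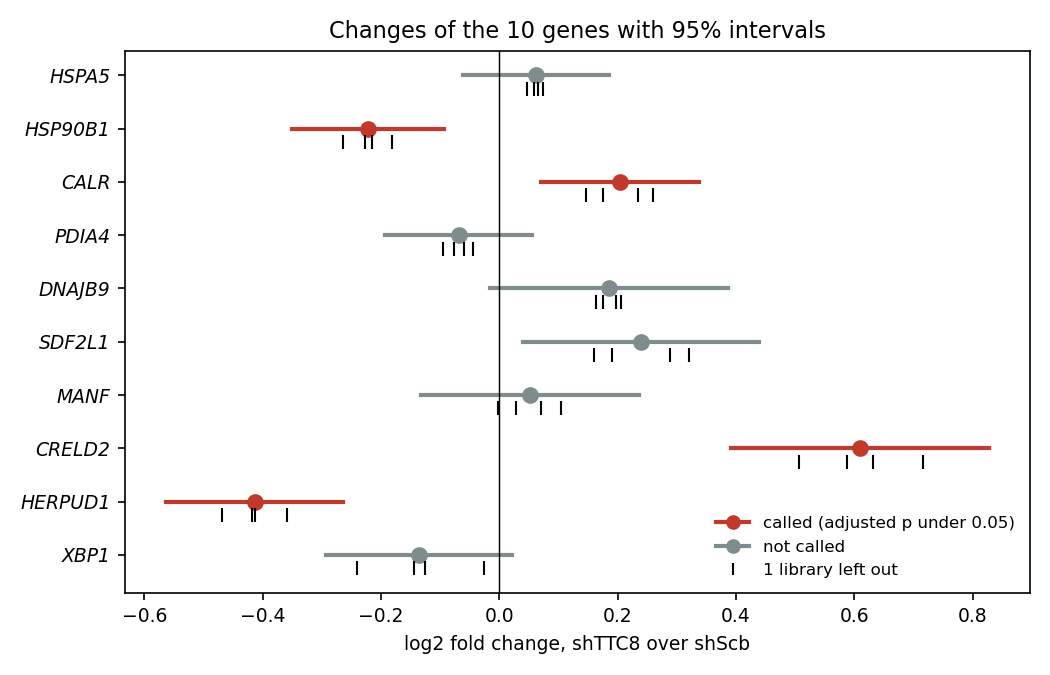
Log2 fold changes of shTTC8 over shScb with 95% intervals for the 10 genes, red where called and grey where not, with ticks for the values when 1 library is left out. CRELD2 (0.61) and HERPUD1 (-0.41) stay far from 0 with each library left out, and the ticks of XBP1 spread from -0.24 to -0.03.

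Levels per length, as CPM per kb of exon, were highest for CALR, at 226 ± 6.02 in shTTC8 and 196 ± 10.7 in shScb (SD, n = 2). HSPA5 had 99.0 ± 0.54 CPM per kb in shTTC8 and 94.8 ± 1.32 in shScb, and HSP90B1 had 96.7 ± 0.38 in shTTC8 and 113 ± 4.74 in shScb (SD, n = 2). The order of HSPA5 and HSP90B1 thus turned between the groups on this scale. It rests on the length used, since per kb of the longest transcript HSP90B1 stood above HSPA5 in shTTC8 too (150 against 99.0 CPM per kb). PDIA4 followed at 67.4 CPM per kb in shTTC8, then XBP1 at 28.9, SDF2L1 at 24.2, MANF at 12.2, HERPUD1 at 10.2, DNAJB9 at 7.15 and CRELD2 at 4.49. In shScb the order differed from this in that HERPUD1 (13.6 CPM per kb) stood above MANF (11.7). In each group, neighbours in the order differed by more than the sum of their SDs.

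The rest of the pathway was counted from 7 further lists, which share no gene with each other. Of all tested genes, 15.2% rose and 16.7% fell, together 31.9%. With a filter of at least 1 CPM in 2 libraries, 6400 of 15598 genes were called, so this share depends on the low-count genes kept. The share called in either direction was 46.7% for sensors and transcription factors, 37.9% for other ER chaperones and 56.5% for disulfide isomerases and oxidases. It was 25.9% for ER-associated degradation, 60.9% for translocation, 63.6% for the PERK and ATF4 branch and 60% for cytosolic and mitochondrial chaperones. Of 15 tested sensors and transcription factors, 5 fell and 2 rose (median log2 fold change -0.06). The sensor gene ERN1 changed by -0.39 (SE 0.14, edgeR adjusted p = 0.0447). ERN1 was not called in 9 of 14 alternatives, among them DESeq2 (0.114) and each library left out except shScb replicate 2. EIF2AK3 (-0.23, adjusted p = 0.0760) and ATF6 (-0.15, adjusted p = 0.125) were lower in value but not called. ATF4, the factor of the EIF2AK3 branch, fell to 457 ± 13.8 CPM in shTTC8, against 579 ± 27.5 CPM in shScb (SD, n = 2). CREB3L2, an ER-bound factor that drives secretory capacity, fell by 0.83 (SE 0.06), and its relative CREB3 rose by 0.27 (SE 0.08). DDIT3 (CHOP), which promotes death under lasting stress, fell by 0.51 (SE 0.12). DDIT3 shares 355 exonic bases with MARS1, which had 1539% of its counts, and 58 with MBD6 (317% of its counts). CREB3 shares 139 with GBA2 (223% of its counts) and 61 with TLN1 (577% of its counts). The values of DDIT3 and CREB3 are therefore uncertain. The call of CREB3 was also lost without shTTC8 replicate 1 (edgeR adjusted p = 0.251), with no low-count filter, with DESeq2 and with the offset for GC content and length.

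Other ER chaperones and co-chaperones did not share a direction: 5 of 29 rose and 6 fell (median -0.0024). HYOU1, the exchange factor of BiP, rose to 371 ± 13.5 CPM in shTTC8, against 275 ± 6.12 CPM in shScb (SD, n = 2). CANX, the membrane-bound counterpart of calreticulin, fell to 487 ± 6.19 CPM in shTTC8, against 672 ± 19.0 CPM in shScb (SD, n = 2). CALR and CANX thus were called in opposite directions. UGGT2, a glucosyltransferase of the same lectin cycle, fell by 0.81 (SE 0.10), and the prolyl isomerase gene FKBP2 rose by 0.48 (SE 0.08). DNAJB11, the partner of SDF2L1, rose by 0.24 (SE 0.07, edgeR adjusted p = 0.0115), which was lost without either shTTC8 replicate (0.124 and 0.0605). It shares 381 exonic bases with TBCCD1, which had 24.5% of its counts. The paralogs SDF2 (0.27), CDNF (-0.32) and CRELD1 (0.08) did not pass. SDF2 passed with library size alone (edgeR adjusted p = 0.0470). Leaving out 1 library moved SDF2 to 0.16 (without shTTC8 replicate 1), CDNF to -0.16 (without shScb replicate 2) and CRELD1 to 0.04 (without shScb replicate 1). SDF2 and CDNF share exonic bases with more abundant genes on the opposite strand.

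Of 23 tested disulfide isomerases and oxidases, 9 fell and 4 rose (median -0.05). P4HB, a protein disulfide isomerase, had 400.5 ± 0.49 CPM in shTTC8 and 399 ± 12.6 CPM in shScb (SD, n = 2; log2 fold change 0.0056, edgeR adjusted p = 0.957). PDIA3, which works with CALR and CANX, fell by 0.18 (SE 0.06, edgeR adjusted p = 0.0404). PDIA3 lost its call in 7 of 14 alternatives, among them without shTTC8 replicate 1 and without shTTC8 replicate 2. GPX7 changed by -0.63 (SE 0.07), TMX3 by -0.50 (SE 0.11) and TMX1 by -0.31 (SE 0.07), while the sulfhydryl oxidase gene QSOX1 rose by 0.33 (SE 0.07). TMX1 lost its call without shTTC8 replicate 1 (edgeR adjusted p = 0.0693). Of 27 genes of ER-associated degradation, 6 rose and only SEL1L fell (median 0.13). VCP, the ATPase that pulls proteins out of the ER membrane, rose by 0.33 (SE 0.06) and its cofactor UFD1 by 0.38 (SE 0.07). UBXN6, another VCP cofactor, rose by 0.20 (SE 0.06), and SEL1L, the partner of the ligase SYVN1, changed by -0.27 (SE 0.07). UBXN6 and SEL1L each lost the call without shTTC8 replicate 1, without shTTC8 replicate 2 and with the offset for GC content and length, and UBXN6 also without shScb replicate 1 and with no low-count filter. HERPUD1 belongs to the same machinery and fell.

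Genes of ER translocation went both ways, with 7 of 23 rising and 7 falling (median 0.01). SPCS3, a signal peptidase subunit, fell to 52.4 ± 2.60 CPM in shTTC8, against 124 ± 10.7 CPM in shScb (SD, n = 2). SSR1 changed by -0.73 (SE 0.07) and SRP9 by -0.58 (SE 0.06), while SRPRA, the receptor of the signal recognition particle, rose by 0.50 (SE 0.06). In the PERK and ATF4 branch 10 of 22 fell and 4 rose (median -0.20). Counts of RNA do not measure the activity of PERK, whose gene EIF2AK3 was not called. PSAT1, of serine synthesis, fell by 1.51 (SE 0.06), the cystine transporter gene SLC7A11 by 1.23 (SE 0.13) and CEBPB by 0.96 (SE 0.08), and SESN2 rose by 0.84 (SE 0.11). Chaperones of the cytosol and mitochondria, set beside them, rose in 17 of 30 cases and fell in 1, HSP90AB1 (median 0.25). DNAJB6 rose by 0.42 (SE 0.06), BAG1 by 0.42 (SE 0.07), AHSA1 by 0.45 (SE 0.07) and DNAJA1 by 0.34 (SE 0.06). TMX3, UBXN6, SRPRA and AHSA1 share exonic bases with genes on the opposite strand that had 24.6% to 44.7% of their counts, so their values are less certain. The lists were not tested against each other or against the 10 genes.

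**Figure D5:**
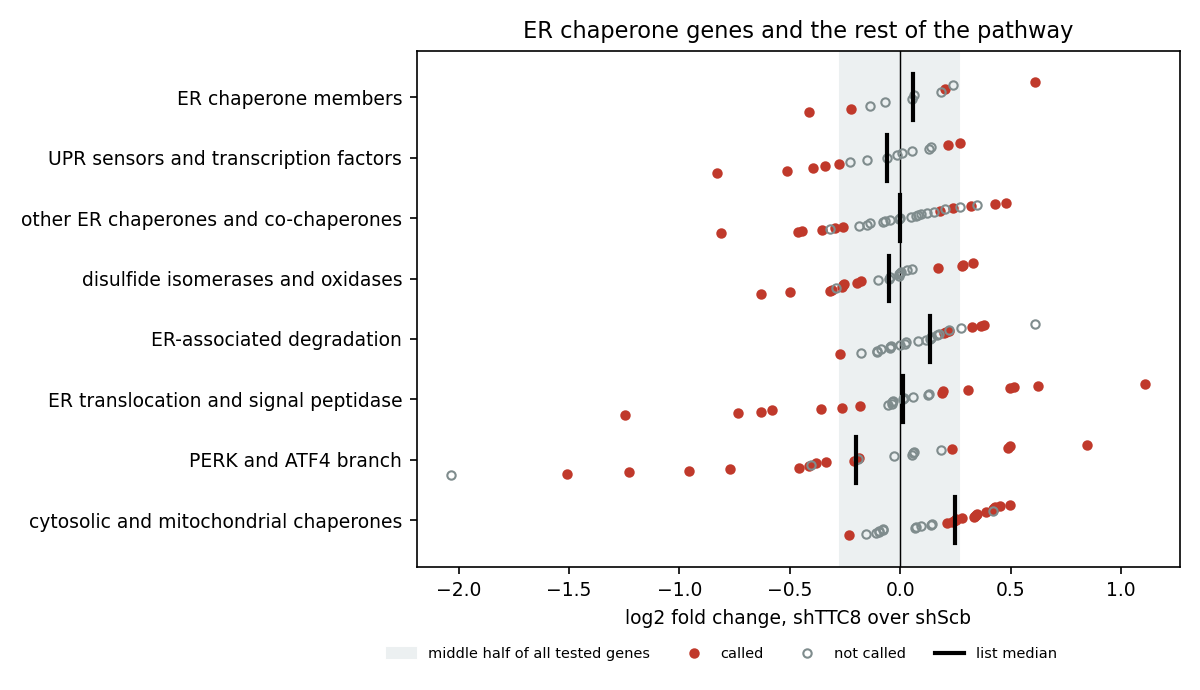
Log2 fold changes of shTTC8 over shScb for the tested genes of each list, filled where called and open where not, with a bar at the median of each list and a grey band from the lower to the upper quartile of all tested genes. The 10 ER chaperone genes lie on both sides of 0 with a median of 0.06, the PERK and ATF4 branch has a median of -0.20 and the cytosolic and mitochondrial chaperones one of 0.25.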

How the data were processed

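The 4 SK-N-BE(2) RNA samples were grouped by their titles. Per the labels' protocols, RNA came from TRIzol extraction and libraries from a TruSeq kit that keeps no strand information. HISAT2 2.2.0 and the build hg38 are named, per the submitters' processing notes. How reads were counted, and on which annotation, is not given in the sources used here. Values deposited by the authors are raw counts, 1 whole number per gene and sample.

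Names came from a gene name table and, where it had none, from GENCODE 29 (GRCh38), the source of positions, exon lengths and GC content. Promoters are RefSeq sequences (GRCh38.p14). The filter was filterByExpr of edgeR 4.0.16 in R 4.3.3. TMM factors scaled the libraries, and CPM uses the scaled totals. Robust quasi-likelihood F tests were two-sided, and Benjamini-Hochberg adjustment covered all 19610 tested genes. An SE is the absolute log2 fold change divided by the root of F. The code was tested on simulated data. Replicates of a group differed by more than sampling noise (chi-square per degree of freedom 6.40 in shTTC8 and 11.4 in shScb). Depth ran from 38284663 to 55331449 counts, and precision is limited by 2 libraries per group.

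The fit was repeated with library size alone, RLE scaling, no filter, a minimum of 1 CPM in 2 libraries, DESeq2 1.42.0, limma-voom (limma 3.58.1), a non-robust fit, the replicate number as a block and each library left out. Thinning to 38284663 counts and a correction for GC content and length (lowess span 0.3) were chosen after seeing the data.

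The genes, lists and tests were chosen with earlier results of these data known. The text names the 10 genes, TTC8, up to 4 called genes per list by p-value, and ERN1, EIF2AK3, ATF6, ATF4, DDIT3, SDF2, CDNF, CRELD1, HYOU1, CANX, DNAJB11, P4HB and PDIA3. ALG12, THAP5, PNPLA8, UQCC6, TTC41P, HSP90AB1 and the genes found by promoter motif were named after their values were seen. Some marker genes are not reported here.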

Additional observations from a re-analysis of the deposited data

How the results depend on the processing

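CRELD2 and HERPUD1 were called in the same direction in all 14 alternatives, with log2 fold changes of 0.51 to 0.72 and -0.47 to -0.36. No alternative set aside the exonic bases that CRELD2 shares with ALG12. HSPA5 was called in none of the 14 (0.04 to 0.10). With 1 library left out, the number of the 10 genes called ran from 2 (without shTTC8 replicate 1 or 2) to 6 (without shScb replicate 2), the number called in the 7 other lists from 44 to 87 (84 with every library), and the number called higher over the whole table from 1880 to 3395 (2974 with every library), the lowest of both without shTTC8 replicate 1. The calls of CALR and HSP90B1 were lost without shTTC8 replicate 1 or 2, and that of CALR also without shScb replicate 1. Without shTTC8 replicate 1 and 2 the log2 fold changes of HSP90B1 were -0.23 and -0.21, against -0.22 with every library. Those of CALR were 0.17 and 0.23, against 0.20, and 0.15 without shScb replicate 1. Without either shTTC8 library the SE of both genes rose from 0.06 to 0.10. The offset for GC content and length called DNAJB9 and PDIA4 (-0.12, adjusted p = 0.0322) in addition. MANF ran from -0.0014 (without shTTC8 replicate 1) to 0.10 (without shTTC8 replicate 2). P4HB turned to -0.020 with no low-count filter, -0.0073 with DESeq2 and -0.098 with the offset for GC content and length, which also turned CRELD1 to -0.0088; neither was called. With 1 library left out, P4HB ran from -0.029 (without shScb replicate 1) to 0.037 (without shScb replicate 2). Leaving out a library leaves 1 in its group, which is assumed to vary like the other group. The ratio of the highest to the lowest level per length was 50.3 with the union of exons (CALR to CRELD2) and 43.1 with the longest transcript (CALR to DNAJB9). The cause of these shifts was not tested. Deviations from the group mean of samples with the same replicate number had r = 0.0317 across genes. With 2 libraries per group either pair gives the same r by construction, so this is a single value. It cannot tell whether the numbers pair the samples or whether samples share a batch. The replicate block gave 6435 called genes and the same 4 of the 10 genes, and its value for CRELD2 was 0.61.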

Other observations

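Outside the 10 genes, 37 further genes had an ERSE or ERSE-II in a promoter window, of which 24 were tested. These genes were chosen after values were seen and got no test as a group. Of the 24, 7 rose and 6 fell, or 54.2% called against 31.9% of all tested genes, with a median log2 fold change of 0.0098. The share over all genes depends on the filter, with 6400 of 15598 called at a minimum of 1 CPM in 2 libraries. FICD, the enzyme that modifies and inactivates BiP, was at 4.25 and 4.30 CPM in shTTC8, against 2.28 and 2.87 CPM in shScb (log2 fold change 0.73, SE 0.21, edgeR adjusted p = 0.0152). SERP1, a protein of the ER translocon that is induced by ER stress, was at 98.2 and 101 CPM in shTTC8, against 151 and 149.7 CPM in shScb (log2 fold change -0.60, SE 0.06, edgeR adjusted p = 2.77e-06). HYOU1, CANX and PDIA6 are also among them, with HYOU1 and PDIA6 higher and CANX lower. Carrying the element went with rises as well as falls, among the 10 genes (2 of 7 carriers rose and 2 fell, and none of the 3 others was called) and outside them.

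The genes DNAJB9 and THAP5 are divergent neighbours as CRELD2 and ALG12 are, with 267 bases shared by their promoter windows. DNAJB9 had 0.638 and 0.633 counts per THAP5 count in shTTC8, against 0.462 and 0.493 in shScb. DNAJB9 had 1.33 and 1.41 counts per PNPLA8 count in shTTC8, against 0.843 and 0.790 in shScb. A ratio moves with either gene. DNAJB9 itself was not called (log2 fold change 0.19, edgeR adjusted p = 0.155), THAP5 changed by -0.23 and PNPLA8 fell by 0.56. The 2 ratios thus do not show a rise of DNAJB9, and its level is uncertain where exons are shared and the strand is not marked. HSP90B1, which shares 121 exonic bases with UQCC6 on the opposite strand, had 19.2 and 20.8 counts per UQCC6 count in shTTC8, against 26.2 and 28.2 in shScb. The ratio to the neighbour was thus higher in shTTC8 for CRELD2 and DNAJB9, and lower for HSP90B1 to UQCC6. In none of these 4 pairs did the groups overlap. An exact two-sided permutation test of 2 against 2 libraries gave p = 0.333 for each pair, the smallest it can give. These pairs were noticed after the values were seen.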
